A study of Homo sapiens with 5 samples.

Results

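The locus described is the stretch of chromosome 9p that holds the tumour suppressor genes CDKN2A and CDKN2B and the metabolic gene MTAP. Its members are 7 genes, picked by symbol from the gene rows of the 80% portion (CDKN2A, CDKN2B, CDKN2B-AS1, MTAP, DMRTA1, KLHL9 and FOCAD), together with the ATAC peaks on chromosome 9 between 21 and 23 Mb. All 7 symbols were found among 36601 genes, and 83 of 158342 peaks lay in the window. Of the 7 genes, FOCAD lies just outside the window and the other 6 inside it. Coordinates are on GRCh38, the build given by the submitters.

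The nuclei came from an equal mixture of 5 established human lines derived from lung adenocarcinomas (A549, H838, H1975, H2228 and HCC827), obtained from a repository. The lines had been grown apart in RPMI medium with fetal calf serum and antibiotics to near confluency, dissociated and frozen. The labels name no drug or genetic change. Nuclei of the mixed lines were isolated, sorted and run once through a droplet kit (10x Multiome) that reads RNA and open chromatin from the same nucleus. The droplets were then divided into a 20% and an 80% portion, each with 1 RNA and 1 ATAC library. The labels do not tie a nucleus to a line, so nuclei were grouped by their RNA into 5 clusters that are called by number and leading genes, and no cluster was given the name of a line. With 1 library of each kind per portion there is no replicate test: the intervals printed are exact 95% intervals that cover counting error only, a count of 0 is given the limit that 3 counts would set, and the 20% portion was read as a second library from the same pool of droplets.

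The 80% portion held 6557 barcodes with 95455518 RNA UMIs (molecules) and 33456364 ATAC fragments in peaks, and the 20% portion held 1286 barcodes with 14346346 UMIs and 6707012 fragments, against 9700 nuclei in total in the labels. The portions shared 159 barcodes, of which 102 were among the 6025 nuclei kept in the 80% portion. RNA cluster 0 (led by MALAT1 and S100A10) had 2219 nuclei, cluster 1 (LDHB, ITPR2) 1410, cluster 2 (ALDH1A1, AKR1B10) 1365, cluster 3 (ACTB, HSP90AA1) 734 and cluster 4 (EGFR, RPL7) 297. All genes of chromosome 9 from 18 to 26 Mb had been left out of the clustering, so the locus took no part in forming the clusters. Clusters made from ATAC alone, without that region, paired with the RNA clusters for 98.3% to 99.9% of nuclei. Median depth per nucleus ran from 9034 UMIs in cluster 2 to 15107.5 in cluster 3, and from 3459.5 fragments in cluster 1 to 5946 in cluster 0. The epithelial list of EPCAM, CDH1 and 4 keratins summed to between 1658 CPM (UMIs per 1000000 UMIs of the cluster) in cluster 1 and 10961 CPM in cluster 2. Its members were uneven. In cluster 1, EPCAM, CDH1 and KRT19 had 23.1, 4.75 and 102 CPM, against 795, 211 and 1605 CPM in cluster 4, while KRT18 had 723 CPM in cluster 1. CDH1 was also low in cluster 0, at 10.7 CPM. The leukocyte and endothelial lists summed to at most 10.5 CPM in any cluster, with PTPRC at 0 in clusters 2 and 4. Of the fibroblast list, DCN was at most 0.0560 CPM, while COL1A1 reached 255 CPM in cluster 0 and COL1A2 35.4 CPM in cluster 3.

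CDKN2A encodes 2 unrelated proteins from separate first exons: p16INK4a, which holds CDK4 and CDK6 inactive and so keeps RB1 active, and p14ARF, which binds and inhibits MDM2. CDKN2B encodes p15INK4b, a close relative of p16INK4a, and CDKN2B-AS1 (ANRIL) is a long non-coding RNA read from the opposite strand through CDKN2B. MTAP breaks down methylthioadenosine, a by-product of polyamine synthesis, for the methionine salvage pathway. Loss of this stretch of 9p from both chromosome copies is among the most frequent deletions in lung adenocarcinoma and in cultured tumour lines, and it often takes MTAP along with CDKN2A.

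The promoters of the 3 protein genes at the centre of the locus are shown because the presence or absence of ATAC signal over them separates the clusters. Each is 300 bases from RefSeq (GRCh38.p14), from 250 bases before to 50 bases after the annotated start, and equals the genome sequence read at those coordinates. RefSeq gave promoters for all 7 members. Capitals mark the GC box, GGGCGG or its reverse complement CCGCCC, a description of letters and not a bound site.
MTAP (chr9:21802386-21802685, plus strand): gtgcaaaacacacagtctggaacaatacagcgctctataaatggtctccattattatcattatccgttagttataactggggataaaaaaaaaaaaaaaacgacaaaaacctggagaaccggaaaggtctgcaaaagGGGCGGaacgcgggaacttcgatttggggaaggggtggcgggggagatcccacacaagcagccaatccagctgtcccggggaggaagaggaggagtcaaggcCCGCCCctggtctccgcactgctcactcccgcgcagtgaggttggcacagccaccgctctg
CDKN2A, p14ARF start (chr9:21995275-21995574, minus strand): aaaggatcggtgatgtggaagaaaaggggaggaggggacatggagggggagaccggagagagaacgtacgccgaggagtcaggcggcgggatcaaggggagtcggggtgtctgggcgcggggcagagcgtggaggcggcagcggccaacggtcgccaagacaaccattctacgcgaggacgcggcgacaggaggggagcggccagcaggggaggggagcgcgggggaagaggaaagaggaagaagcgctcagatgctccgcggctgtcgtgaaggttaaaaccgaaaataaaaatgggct
CDKN2A, p16INK4a start (chr9:21974808-21975107, minus strand): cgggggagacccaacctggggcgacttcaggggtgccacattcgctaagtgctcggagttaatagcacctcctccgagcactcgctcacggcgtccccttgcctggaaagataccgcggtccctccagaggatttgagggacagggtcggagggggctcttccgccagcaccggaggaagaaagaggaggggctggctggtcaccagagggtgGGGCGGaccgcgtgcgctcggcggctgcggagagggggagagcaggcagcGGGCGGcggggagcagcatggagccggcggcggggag
CDKN2B (chr9:22009256-22009555, minus strand): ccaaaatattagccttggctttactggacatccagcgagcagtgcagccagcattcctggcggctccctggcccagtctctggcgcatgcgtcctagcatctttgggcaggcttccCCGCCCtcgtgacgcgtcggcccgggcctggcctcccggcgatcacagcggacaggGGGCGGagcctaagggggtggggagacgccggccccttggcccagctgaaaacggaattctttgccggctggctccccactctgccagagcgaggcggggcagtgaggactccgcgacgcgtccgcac
The MTAP, p16INK4a and CDKN2B windows each held 2 GC boxes and the p14ARF window held none; 45.0% of all 35116 RefSeq promoters of this length held at least 1. The p14ARF, p16INK4a and CDKN2B windows were rich in CpG, with 28, 26 and 25 CpG pairs, against 15 for MTAP and a median of 14 over all promoters. All 4 windows lay under ATAC peaks in the nuclei of clusters 3 and 4.

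The locus was read out as 3 patterns across the 5 clusters. Clusters 0 and 1 had almost no ATAC fragment from KLHL9 to DMRTA1, and few UMIs, most of them of CDKN2A among the members there. Cluster 2 had signal on both sides but 3 fragments in all from inside MTAP through CDKN2A and CDKN2B to the far part of CDKN2B-AS1. Clusters 3 and 4 had signal throughout. FOCAD, just outside the window, was transcribed in every cluster.

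**Figure D1:**
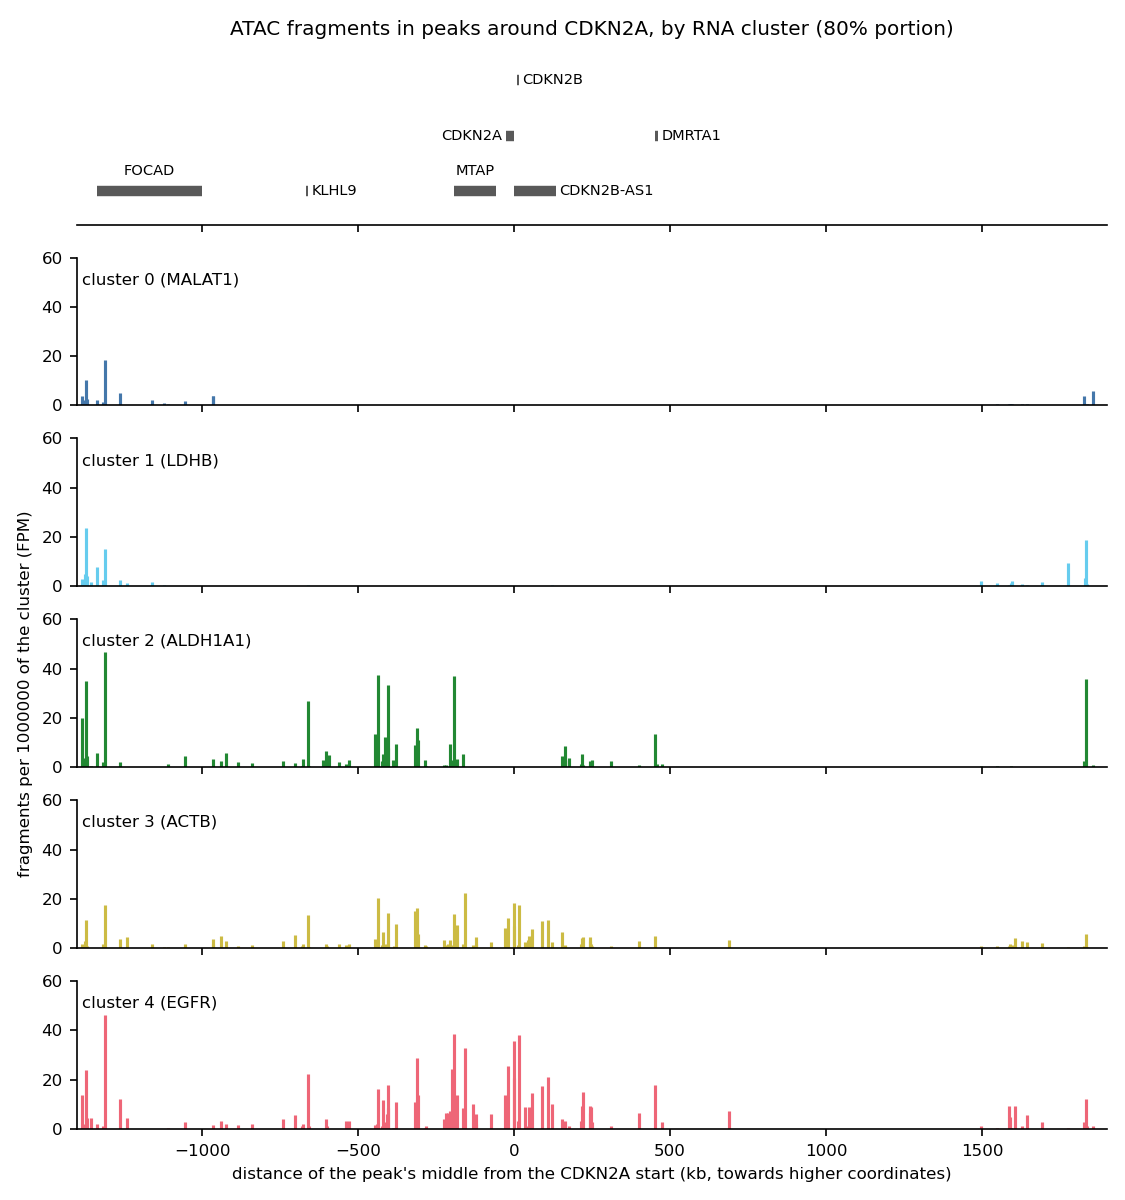
Fragments per 1000000 fragments of the cluster (FPM, y axis) in each peak, plotted by the distance of the peak's middle from the CDKN2A start in kb (x axis), for the 5 RNA clusters of the 80% portion, with the 7 genes drawn to scale above. Clusters 0 and 1 are nearly empty from HACD4 or FOCAD to the far side of DMRTA1. Cluster 2 has a gap around CDKN2A and low counts well past DMRTA1, and clusters 3 and 4 have peaks along the whole stretch.

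MTAP (ENSG00000099810, chr9:21802636-21937651, plus strand) had 1.48 CPM in cluster 0 (1.11 to 1.94, 53 UMIs), 1.73 CPM in cluster 1 (1.18 to 2.44, 32 UMIs), 53.04 CPM in cluster 2 (49.2 to 57.1, 694 UMIs), 108 CPM in cluster 3 (102 to 114, 1301 UMIs) and 312 CPM in cluster 4 (295 to 329.5, 1268 UMIs). The order was the same in the 20% portion, with 1.62, 2.04, 69.3, 123 and 288 CPM. The intervals of clusters 0 and 1 overlapped, and both lay below the other 3 in each portion, with no overlap of intervals. Against cluster 3, the MTAP level was 73.0-fold lower in cluster 0 and 62.7-fold lower in cluster 1, while cluster 2 was 2.04-fold lower. A UMI of MTAP was seen in 2.12% and 2.27% of the nuclei of clusters 0 and 1, in 37.5% of cluster 2, 69.1% of cluster 3 and 90.2% of cluster 4.

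The peak over the MTAP start (chr9:21802071-21803082) held 2 fragments in cluster 0, 0 in cluster 1, 201 in cluster 2, 59 in cluster 3 and 69 in cluster 4. The matching peak of the 20% portion held 1, 0, 41, 22 and 14 fragments. Cluster 2 thus had an open MTAP start at 36.9 FPM, near the 38.5 of cluster 4 and above the 13.7 of cluster 3. The 7 peaks in the MTAP body held 50 fragments in cluster 2, or 9.17 FPM, against 43.8 and 79.8 FPM in clusters 3 and 4. Of those 50, 49 lay in the 2 body peaks nearest the start, where clusters 3 and 4 held 48 and 40. The other 5 body peaks held 1 fragment in cluster 2, 141 in cluster 3 and 103 in cluster 4.

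CDKN2A (ENSG00000147889, chr9:21967752-21995301, minus strand) had 7.95 CPM in cluster 0 (7.05 to 8.93, 284 UMIs), 7.66 CPM in cluster 1 (6.45 to 9.03, 142 UMIs), 12.5 CPM in cluster 2 (10.7 to 14.6, 164 UMIs), 89.4 CPM in cluster 3 (84.1 to 94.9, 1075 UMIs) and 421 CPM in cluster 4 (401 to 441.5, 1712 UMIs). The 20% portion gave levels of 5.22, 4.77, 11.8, 94.6 and 432 CPM. The intervals of clusters 0 and 1 overlapped, cluster 2 was 1.58-fold above cluster 0 in the 80% portion with intervals that did not meet, and those of clusters 2 and 0 overlapped in the 20% portion. Cluster 4 was 4.71-fold above cluster 3, so the 2 clusters with signal over the gene also differed from each other.

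The CDKN2A starts had almost no chromatin signal in clusters 0 to 2. Over the p16INK4a start (chr9:21974443-21975461) the fragments numbered 1, 0, 0, 53 and 46 in clusters 0 to 4, and over the p14ARF start (chr9:21995189-21995953) they numbered 0, 0, 0, 39 and 37. The peak at the start of CDKN2B-AS1 (chr9:21994097-21994975), within the body of CDKN2A, held 1, 1, 0, 80 and 64. Clusters 3 and 4 therefore had open chromatin over both first exons, whose promoters are printed above, and clusters 0 to 2 had 1 fragment at most in any of these peaks. The deposited gene counts do not separate the p16INK4a from the p14ARF transcript.

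CDKN2A had UMIs in clusters 0 to 2, where its starts had almost no fragment. A UMI was seen in 11.2% of nuclei in cluster 0, 9.15% in cluster 1 and 10.8% in cluster 2, at median depths of 14998, 12677.5 and 9034 UMIs, while CDKN2B, the neighbour, had a UMI in 0.315%, 0.0709% and 0 of 1365 nuclei (0 nuclei allows a share of up to 0.220%). The ratio of CDKN2A to MTAP UMIs was 5.36 in cluster 0 (3.98 to 7.33) and 4.44 in cluster 1 (3.01 to 6.73), above the 0.236 of cluster 2, the 0.826 of cluster 3 and the 1.35 of cluster 4. The ratio of CDKN2A to CDKN2B was 40.6 in cluster 0 (19.4 to 102). That interval lay above the 6.72 of cluster 3 and held the 19.9 of cluster 4. In cluster 1 the ratio was 142 (25.08 to 5648), on 1 CDKN2B UMI. In cluster 2, with 0 CDKN2B UMIs, only a lower bound of 43.96 could be given. Both lower bounds lay above the upper bound of cluster 4, 25.02, that of cluster 1 only just. The ratio to CDKN2B-AS1 was 11.8 in cluster 0 (7.79 to 18.8) and 8.35 in cluster 1 (5.04 to 14.7), intervals that hold the 8.78 of cluster 4, and it was 0.488 and 2.72 in clusters 2 and 3. The source of these CDKN2A reads was not tested. After every nucleus was thinned to 1000 UMIs, the share of nuclei with a CDKN2A UMI was 0.721%, 1.21% and 0.952% in clusters 0 to 2, 7.63% in cluster 3 and 31.6% in cluster 4.

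CDKN2B (ENSG00000147883, chr9:22002903-22009305, minus strand) had 7 UMIs in cluster 0 (0.196 CPM), 1 in cluster 1 (0.0539 CPM), 0 in cluster 2 (where 3 UMIs are 0.229 CPM), 160 in cluster 3 (13.3 CPM, 11.3 to 15.5) and 86 in cluster 4 (21.2 CPM, 16.9 to 26.1). The 20% portion had 3, 0, 0, 44 and 15 UMIs. The gene was 67.9-fold lower in cluster 0 and, taking 3 counts for the 0 UMIs, at least 58.0-fold lower in cluster 2 than in cluster 3. Its start (chr9:22008956-22009822) held 0, 1, 1, 76 and 68 fragments, and 0, 0, 0, 18 and 10 in the 20% portion. RNA and chromatin gave the same split for CDKN2B, with clusters 3 and 4 apart from the other 3.

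CDKN2B-AS1 (ENSG00000240498, chr9:21994139-22128103, plus strand) split the clusters another way. Its level was 0.672 CPM in cluster 0 (24 UMIs), 0.917 CPM in cluster 1 (17 UMIs), 25.7 CPM in cluster 2 (23.01 to 28.6, 336 UMIs), 32.9 CPM in cluster 3 (29.7 to 36.3, 395 UMIs) and 48.0 CPM in cluster 4 (41.5 to 55.2, 195 UMIs). In the 20% portion the levels were 1.44, 1.36, 32.1, 24.1 and 19.7 CPM, where the intervals of clusters 2, 3 and 4 overlapped. So cluster 2 had UMIs of this gene although the peak at its start held 0 fragments there and the 7 peaks of the gene beyond CDKN2B held 1, against 187 in cluster 3. The annotated gene runs past the last of these peaks, and where along the gene the UMIs of cluster 2 fell cannot be read from gene counts. CDKN2B-AS1 overlaps CDKN2B on the opposite strand, so counts of both are uncertain where reads could be shared. An unnamed gene (ENSG00000264545), annotated from MTAP across CDKN2A to CDKN2B, is not among the genes counted.

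**Figure D2:**
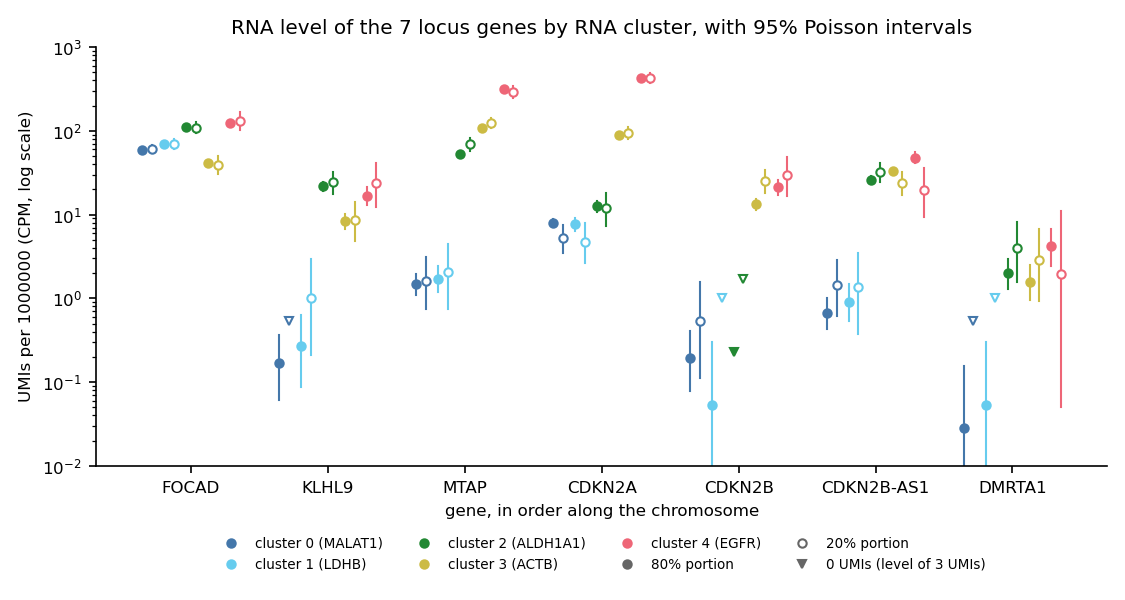
CPM (y axis, log scale) of the 7 genes in the 5 RNA clusters, in order along the chromosome, with filled points for the 80% portion, open points for the 20% portion, vertical lines for 95% Poisson intervals and triangles at the level of 3 UMIs where none was seen. FOCAD lies between 41.0 and 123.5 CPM in all clusters of the 80% portion, KLHL9, MTAP and CDKN2B-AS1 drop in clusters 0 and 1 alone, and CDKN2A and CDKN2B are low in cluster 2 as well.

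KLHL9 (ENSG00000198642, chr9:21329665-21335404, minus strand), an adaptor of the CUL3 ubiquitin ligase that acts in cell division, had 6 UMIs in cluster 0 (0.168 CPM) and 5 in cluster 1 (0.270 CPM). It had 21.8 CPM in cluster 2 (19.3 to 24.5), 8.32 CPM in cluster 3 (6.77 to 10.1) and 16.7 CPM in cluster 4 (13.0 to 21.2). Its start (chr9:21334885-21335763) held 1, 3, 146, 58 and 40 fragments. KLHL9 lies on the near side of MTAP, and cluster 2, which lacked signal over CDKN2A, had the highest KLHL9 level, with an interval that overlapped that of cluster 4. The 20% portion gave 0, 3, 43, 15 and 12 UMIs in clusters 0 to 4.

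DMRTA1 (ENSG00000176399, chr9:22446824-22455740, plus strand), a transcription factor gene of the DMRT family, was the least abundant member. It had 1 UMI in cluster 0, 1 in cluster 1, 26 in cluster 2 (1.99 CPM), 19 in cluster 3 (1.58 CPM) and 17 in cluster 4 (4.18 CPM), and the intervals of clusters 2, 3 and 4 overlapped. The peak just inside the gene (chr9:22447017-22447674) gave a firmer reading, with 0 fragments in cluster 0, 1 in cluster 1, 73 in cluster 2, 22 in cluster 3 and 32 in cluster 4. Cluster 2 was thus open at DMRTA1, on the far side of its gap.

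FOCAD (ENSG00000188352, chr9:20658309-20995955, plus strand), which encodes a focal adhesion protein, was present in all nuclei groups, at 59.3 CPM in cluster 0, 69.1 in cluster 1, 110.1 in cluster 2, 41.0 in cluster 3 and 123.5 in cluster 4. The 20% portion gave 60.1, 69.2, 109.3, 39.0 and 132.3 CPM. Clusters 0 and 1 were above cluster 3 here, by 1.45-fold and 1.68-fold. Cluster 0 was 1.86-fold and 2.08-fold below clusters 2 and 4, and cluster 1 was 1.59-fold and 1.79-fold below them. FOCAD RNA in the clusters with an empty window thus lay within the range of the others. A peak over exons of FOCAD and FOCAD-AS1 (chr9:20683836-20684674) held 245, 74, 254, 76 and 83 fragments in clusters 0 to 4, and the peak at the annotated FOCAD start (chr9:20658323-20659162) held 27, 39, 32, 1 and 4. The last 3 FOCAD peaks (from chr9:20872235 on) held 3 fragments together in cluster 1, against 45 in cluster 0, 32 in cluster 2, 12 in cluster 3 and 6 in cluster 4.

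By a rule of size run over all genes, a gene was called low in a cluster where the upper bound of its CPM lay under 1/8 of the mean of the other clusters. Of the 7 members, 6 were low in cluster 0, all except FOCAD, where 2.9% of 17439 genes tested were low. In cluster 1, 5 of the 7 were low, all except FOCAD and DMRTA1, beside 5.09% of 15473 genes. In cluster 2, 2 of 6 tested were low, CDKN2A and CDKN2B, beside 2.97% of 14570 genes. The mean that CDKN2A was set against there includes the high level of cluster 4. CDKN2A in cluster 2 was 33.6-fold below cluster 4 but 7.13-fold below cluster 3, which is short of the 1/8 of the rule. None of the members tested was low in clusters 3 and 4, where the rule called 2.94% and 1.38% of all genes tested. DMRTA1 missed the call in cluster 1 at 1 UMI, whose upper bound of 0.3005 CPM was above 1/8 of the mean of the others.

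The window peaks followed the same division. In cluster 0, 46 of 49 window peaks tested were low, beside 2.06% of all 81338 peaks tested; in cluster 1, 15 of 18, beside 1.58% of 38287; and in cluster 2, 9 of 18, beside 2.99% of 42260. None of the 9 tested in cluster 3 was low, beside 0.952% of all peaks. No window peak could be tested in cluster 4, which had the fewest nuclei and where 0.32% of all peaks tested were low. Of the 83 window peaks, 60 had no fragment at all in cluster 0 and 67 none in cluster 1, against 15 in cluster 2, 1 in cluster 3 and 5 in cluster 4. Summed over the window this was 9.59 FPM in cluster 0 (7.99 to 11.4), 3.88 in cluster 1 (2.33 to 6.06), 382 in cluster 2, 378.5 in cluster 3 and 702 in cluster 4. In the 20% portion, whose own 31 window peaks were used, the sums were 8.77, 2.97, 289, 336 and 552 FPM.

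Most of what cluster 0 had in the window, 100 of 127 fragments, lay in the 2 peaks at the start of HACD4, a fatty acid elongation gene at the near end. HACD4 separated clusters 0 and 1. Its RNA level was 7.89 CPM in cluster 0 (282 UMIs) and 0.701 CPM in cluster 1 (13 UMIs), with 2.68, 5.07 and 2.71 CPM in clusters 2, 3 and 4. The 2 peaks held 100 fragments in cluster 0, 2 in cluster 1, 22 in cluster 2, 24 in cluster 3 and 3 in cluster 4. HACD4 in the 20% portion had 38 UMIs and 15 fragments in cluster 0 and 4 UMIs and 0 fragments in cluster 1.

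The extent of the empty stretch was read from consecutive peaks with at most 3 fragments. In cluster 0 it began at the peak chr9:21056693-21057593, after the HACD4 start peak with 52 fragments 24.7 kb before it, and ran over 82 peaks with 27 fragments in all to chr9:23492883. In cluster 1 it began inside FOCAD at chr9:20872235, after a peak with 8 fragments, and ran over 86 peaks with 22 fragments to chr9:22684157. Its first peak held 3 fragments in cluster 1, against 0, 2 and 0 in clusters 2, 3 and 4. That peak thus falls in the stretch by the count limit alone and does not set cluster 1 apart. The same peaks held 1614 fragments in cluster 3 for the first stretch and 1647 for the second. On the far side no peak was called for 808 kb after chr9:22684157. The next peak (chr9:23492014-23492883) held 10 fragments in cluster 1, so the distal end was not resolved within that gap. By count the stretch of cluster 0 took in this next peak, with 0 fragments, and ended 50.3 kb before a peak with 9. The peak at chr9:23492014 held only 2, 3 and 2 fragments in clusters 2, 3 and 4, and was not tested in cluster 0. It therefore does not place the distal end of cluster 0 past the gap. By these peaks the near end of cluster 0 lay beyond the HACD4 start. In cluster 1 the low counts began before it, but the peaks in the last part of FOCAD and at HACD4 were too shallow there to be tested by the rule of size. The 100 kb bin chr9:21000001-21100000 was tested in cluster 1, with 2 fragments, and was not called low. HACD4 RNA, at 0.701 CPM, was not called low there either. The near end of cluster 1 was therefore not settled.

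In cluster 2 the empty stretch around CDKN2A was short and had signal on each side. It began inside MTAP at chr9:21836119, 3.45 kb after a peak with 30 fragments (chr9:21831766-21832667), and ran for 282 kb over 18 peaks to chr9:22118098 within CDKN2B-AS1, 29.7 kb before a peak with 24 fragments (chr9:22147844-22148734). The 18 peaks held 3 fragments in cluster 2 (0.550 FPM, at most 1.61), 617 in cluster 3 and 496 in cluster 4, and 15 of the 18 had none. All 9 window peaks called low in cluster 2 lay in this stretch. In the 20% portion the 10 peaks from chr9:21836228 to chr9:22118065 held 0 fragments in cluster 2, with 41 at the MTAP start on the near side and 7 at chr9:22211429-22212330 on the far side. By the same count limit cluster 2 had a second stretch, from chr9:22683344 to chr9:23770118, mostly past the window. No peak there held more than 2 fragments in cluster 2, and none was tested in it. The 100 kb bin chr9:23500001-23600000 was tested, with 4 fragments against 36 and 45 in clusters 3 and 4. It was not called low in cluster 2, so this second stretch was not settled.

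The middles of the 4 peaks that bound the stretch around CDKN2A are shown, since they place its ends, 200 bases each on the plus strand of GRCh38. Capitals mark the AP-1 motif, TGACTCA or TGAGTCA, which are each other's reverse complements; it was in the middles of 30.1% of the 83 window peaks and of 21.7% of all 6841 peaks on chromosome 9.
Last peak with signal before the stretch (chr9:21832117-21832316): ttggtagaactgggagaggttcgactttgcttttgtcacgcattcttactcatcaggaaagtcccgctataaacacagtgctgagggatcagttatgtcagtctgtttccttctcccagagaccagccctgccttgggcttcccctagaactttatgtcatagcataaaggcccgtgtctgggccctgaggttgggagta
First peak without signal (chr9:21836513-21836712): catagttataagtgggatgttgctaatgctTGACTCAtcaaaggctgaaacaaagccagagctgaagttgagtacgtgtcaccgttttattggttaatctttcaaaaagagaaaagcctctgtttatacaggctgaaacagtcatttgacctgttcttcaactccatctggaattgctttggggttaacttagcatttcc
Last peak without signal (chr9:22117630-22117829): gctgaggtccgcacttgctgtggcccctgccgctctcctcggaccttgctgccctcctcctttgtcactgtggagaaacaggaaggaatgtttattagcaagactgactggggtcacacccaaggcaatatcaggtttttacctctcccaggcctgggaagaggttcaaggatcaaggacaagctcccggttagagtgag
First peak with signal after the stretch (chr9:22148190-22148389): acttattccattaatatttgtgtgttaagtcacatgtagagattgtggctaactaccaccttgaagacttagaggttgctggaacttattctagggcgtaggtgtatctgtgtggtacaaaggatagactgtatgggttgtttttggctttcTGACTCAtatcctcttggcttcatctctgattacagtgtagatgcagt
The first peak without signal in cluster 2 held 97 fragments in cluster 3 and 59 in cluster 4, the most of any MTAP body peak in both. In cluster 2 it held 1, and it held 1 each in clusters 0 and 1.

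In 100 kb bins over the genome, the run of low bins that held the locus had 15 bins in cluster 0 (from 21.1 to 22.7 Mb), 10 in cluster 1 (from 21.3 to 22.5 Mb) and 2 in cluster 2. Beside these, 2.06%, 0.95% and 1.42% of all bins tested were low in those clusters. The locus run had more low bins than any other autosomal run in cluster 0, where the next had 6, on chromosome 7 between 56.3 and 63.8 Mb. That run spanned more of the genome, since runs pass over bins that were not tested. In cluster 1 another run had 17, on chromosome 19 between 21.9 and 24.2 Mb, and in cluster 2 another had 6. None of the 10 window bins tested in cluster 3 or the 3 tested in cluster 4 was low, beside 0.399% and 0.0803% of all bins tested.

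Signal was then read nucleus by nucleus over the 36 peaks from the MTAP start to the DMRTA1 start. A fragment was found in 7 of 2219 nuclei of cluster 0 (0.315%, 0.127 to 0.649) and in 4 of 1410 of cluster 1 (0.284%, 0.0773 to 0.725). It was found in 369 of 1365 nuclei of cluster 2 (27.0%, 24.7 to 29.5), 448 of 734 of cluster 3 (61.0%, 57.4 to 64.6) and 242 of 297 of cluster 4 (81.5%, 76.6 to 85.7). No intervals of clusters 2, 3 and 4 met. Thinned to 2000 fragments a nucleus, which left out 29 to 149 shallower nuclei per cluster, the shares were 0.0966%, 0.236%, 15.7%, 30.5% and 56.7%, with clusters 0 and 1 in the other order and their intervals overlapping before and after.

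Over the 6 peaks of CDKN2A and CDKN2B alone, cluster 2 joined the empty group. The share of nuclei with a fragment was 0.0901% in cluster 0 (2 nuclei), 0.142% in cluster 1 (2 nuclei) and 0.0733% in cluster 2 (1 nucleus). It was 30.4% in cluster 3 (27.1 to 33.8) and 49.2% in cluster 4 (43.3 to 55.0). In the 20% portion the counts were 1 of 445, 0 of 278, 0 of 233, 45 of 138 and 20 of 47 nuclei; 0 of 233 allows a share of up to 1.29%. The intervals of clusters 0, 1 and 2 did not meet those of clusters 3 and 4 in either portion.

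**Figure D3:**
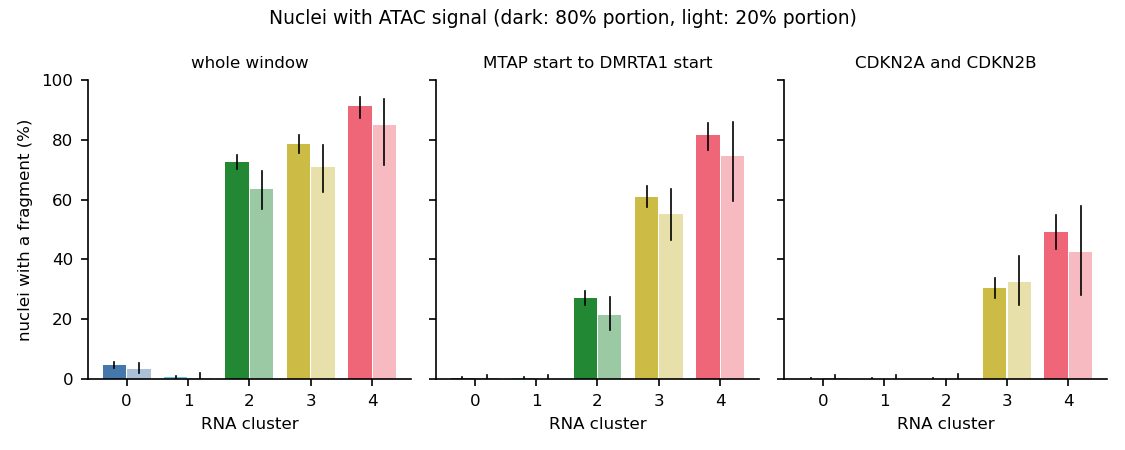
Percent of nuclei (y axis) with at least 1 ATAC fragment in the whole window, from MTAP to DMRTA1, and over CDKN2A and CDKN2B, for RNA clusters 0 to 4 (x axis), dark for the 80% and light for the 20% portion, with 95% binomial intervals. Clusters 0 and 1 are at or under 4.64% in all panels, and cluster 2 falls from 72.5% over the whole window to 0.0733% over CDKN2A and CDKN2B.

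RNA and ATAC of the same nucleus were set against each other, counting a UMI of CDKN2A, CDKN2B, CDKN2B-AS1 or MTAP and a fragment between MTAP and DMRTA1. Neither was found in 86.1% of cluster 0, 87.7% of cluster 1, 34.5% of cluster 2, 3.68% of cluster 3 and 1.01% of cluster 4. Both were found in 5 nuclei of cluster 0, 2 of cluster 1, 216 of cluster 2, 422 of cluster 3 and 241 of cluster 4. Of the nuclei with locus RNA, 302 of the 307 in cluster 0 and 170 of the 172 in cluster 1 had no locus fragment. Only 7 nuclei of cluster 0 and 4 of cluster 1 had a fragment at all. These shares were therefore set by the counts and cannot tell whether RNA and fragments went together. Of those 7 and 4 nuclei, 5 and 2 had locus RNA, too few to compare.

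**Figure D4:**
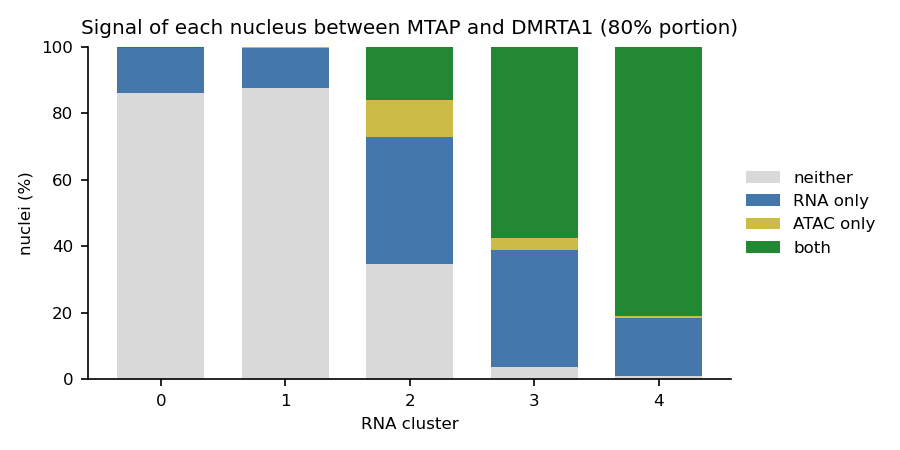
Percent of nuclei (y axis) of each RNA cluster (x axis) of the 80% portion with a UMI of the 4 central genes only, a fragment from MTAP to DMRTA1 only, both, or neither. Both are found in 0.225% of cluster 0, 57.5% of cluster 3 and 81.1% of cluster 4.

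Barcodes called doublets had been left out above, and in cluster 0 they had a fragment at the locus more often. In a clustering of all barcodes, 44 of 199 doublet calls that fell in cluster 0 had a fragment between MTAP and DMRTA1 (22.1%, 16.5 to 28.5), against 11 of 2285 barcodes without a call (0.481%). The median depth of these doublet calls was 10015 fragments, against 5907. In clusters 2, 3 and 4 the shares were 34.8%, 72.1% and 88.9% of doublet calls against 26.7%, 60.1% and 79.9%, with intervals that overlapped, and in cluster 1 they were 1 of 7 against 0 of 1442 barcodes.

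The flanks of the window had signal in every cluster. Set against the average share among the remaining clusters, the ATAC share of the 3 Mb before the window was -0.43, -0.09, 0.34, -0.46 and 0.49 on the log2 scale in clusters 0 to 4, and that of the 3 Mb after it was -0.54, -0.52, 0.07, -0.29 and 0.96. Inside the window it was -5.26 and -6.57 in clusters 0 and 1 and 0.48, 0.46 and 1.86 in clusters 2, 3 and 4. The far flank rests on 21 peaks and 186 to 618 fragments a cluster, and without peaks at gene starts cluster 1 turned to 0.34 there and cluster 2 to -2.39. For RNA, the window stood at -4.83 and -5.57 in clusters 0 and 1. The RNA share of the 3 Mb after it was 0.30, -0.13, -1.10, -0.02 and 0.62 in clusters 0 to 4. Cluster 2 stood at -2.28 there in the 20% portion, on 7 UMIs. Some single flank bins were called low: chr9:23700001-23800000 in cluster 0, and chr9:20300001-20400000 and chr9:25600001-25700000 in cluster 1. They stand beside 2.06% and 0.95% of all bins tested. Cluster 4 had the highest share in the window and in each flank in ATAC, while its share on 9q was -0.02.

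**Figure D5:**
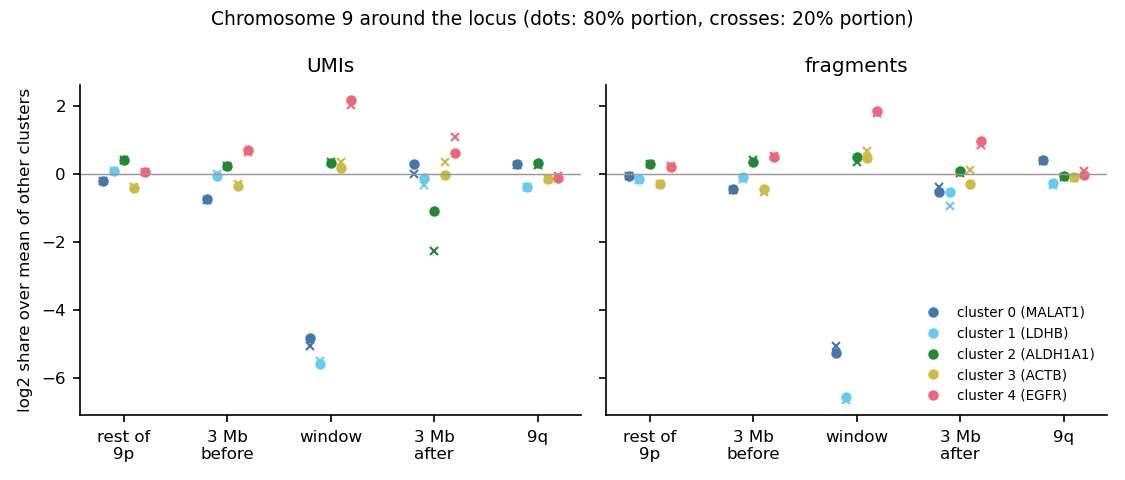
Log2 of a cluster's share of UMIs (left) or fragments (right) over the average share among the remaining clusters (y axis) for the rest of 9p, the 3 Mb before the window, the window, the 3 Mb after it and 9q (x axis), with dots for the 80% and crosses for the 20% portion. The window is lowest in clusters 0 and 1, at -4.83 and -5.57 for UMIs and -5.26 and -6.57 for fragments.

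The other genes of the window did not all follow the members' division. Of 31 window genes, 18 had no UMI in any cluster of the 80% portion, among them 14 interferon genes. MIR31HG, the host of the microRNA miR-31, had the most UMIs of the window's genes over the 5 clusters together, with 1.23 and 0.324 CPM in clusters 0 and 1 and 366, 232 and 345 CPM in clusters 2, 3 and 4. CDKN2A was above it in clusters 0, 1 and 4. Its start (chr9:21559344-21560228) held 1, 0, 204, 88 and 29 fragments. IFNE, an epithelial interferon, had 46, 9 and 9 UMIs in clusters 2, 3 and 4 and none in clusters 0 and 1. LINC01239, beyond DMRTA1, had 24.4 CPM in cluster 4 and at most 2.90 in any other. AL157937.1, between CDKN2B-AS1 and DMRTA1, had 43.3 CPM in cluster 2 and at most 2.21 in any other, and was called low in cluster 3. Mature miR-31-5p is not counted in these libraries, and is shown with its seed (bases 2 to 8) in capitals because its host had the most UMIs of these genes.
hsa-miR-31-5p (chr9:21512158-21512178, minus strand): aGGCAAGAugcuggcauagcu

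The window peaks were mostly away from gene starts: 43 of 83 were intergenic, 23 intronic, 5 exonic and 12 at an annotated start. Between MIR31HG and MTAP, which holds no member, 21 peaks held 802 fragments in cluster 2 (147 FPM), 399 in cluster 3 (92.4) and 321 in cluster 4 (179), against 10 and 4 in clusters 0 and 1. Over CDKN2A and CDKN2B the order of clusters 3 and 4 was the same, with 66.9 and 137 FPM.

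Genes that work with the members' products were read from lists chosen for their pathways. Of the 16 genes of the CDK4/6 and RB1 axis, 15 were tested in clusters 0 to 3 and 13 in cluster 4, and only CDK6 in cluster 0 was called low. Over all genes tested, 2.9%, 5.09%, 2.97%, 2.94% and 1.38% were low in clusters 0 to 4, so this count does not set the list apart. CDK6 had 21.2 CPM in cluster 0 and 144 to 315 CPM in the others. CDK4, the other target of p16INK4a, had 147, 87.7, 113, 161 and 1624 CPM, so cluster 4, with the highest CDKN2A, also had 12.8 times the mean CDK4 of the others. RB1 was present in each cluster, at 57.8, 98.1, 71.6, 29.6 and 49.4 CPM. The list's median ratio to the average of the remaining clusters lay between 0.78 and 1.11, beside 0.88 to 0.96 over all genes tested. By a 2-fold rule, 0, 2, 1, 0 and 2 of the list were higher in clusters 0 to 4, beside 8.83%, 8.85%, 6.97%, 5.55% and 4.49% of all genes, and 3, 1, 2, 3 and 2 were lower, beside 19%, 23.7%, 18.6%, 15.4% and 14.9%.

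Among the other CDK inhibitors listed, CDKN2C (p18INK4c) had 26.5 and 34.9 CPM in clusters 0 and 1 and 16.4, 14.6 and 7.13 CPM in clusters 2, 3 and 4. CDKN2D (p19INK4d) lay between 4.66 and 9.10 CPM. CDKN1C (p57) had 44.6, 76.8, 6.73, 19.8 and 18.7 CPM. CDKN2C and CDKN1C were thus both highest in clusters 0 and 1, with intervals apart from the other 3. CDKN1A (p21) stayed between 9.84 and 16.5 CPM. CDKN1B was highest in clusters 2 and 4 instead, with 26.2, 24.8, 35.5, 21.7 and 31.7 CPM in clusters 0 to 4. The interval of cluster 4 (26.5 to 37.7) overlapped those of cluster 0 (24.6 to 28.0) and cluster 1 (22.6 to 27.2). This order did not hold in the 20% portion, with 20.9, 31.7, 28.7, 19.5 and 27.6 CPM, where cluster 1 was highest. The order of CDKN2C held in the 20% portion, with 24.1 and 36.5 CPM in clusters 0 and 1 and 16.3, 9.75 and 5.92 in the others.

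On the p14ARF side, MDM2, MDM4 and CDKN1A were not called low in any cluster, beside 1.38% to 5.09% of all genes tested. MDM2, the target of p14ARF, had 46.6, 48.1, 78.3, 38.5 and 41.6 CPM.

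Of the 14 genes of methionine salvage, polyamine synthesis and the PRMT5 complex, all were tested in every cluster, and MTAP, in clusters 0 and 1, was the only call. Those 2 calls stand beside 2.9% and 5.09% over all genes. MAT2A, which makes S-adenosylmethionine, had 153 CPM in cluster 0, 53.7 in cluster 1, 160 in cluster 2, 123 in cluster 3 and 128 in cluster 4. PRMT5, the methyltransferase that methylthioadenosine inhibits, had 38.0, 53.5, 49.3, 53.3 and 61.5 CPM, and its partner WDR77 had 10.4, 52.9, 12.2, 15.6 and 32.5. APIP, a later salvage enzyme, had 52.6, 20.1, 63.3, 39.0 and 15.5 CPM. Clusters 0 and 1, both without MTAP signal, therefore differed from each other in MAT2A, WDR77 and APIP, on opposite sides of the mean of the others. The KLHL9 partners CUL3 and RBX1 were present in each cluster at 141 CPM or more for CUL3 and 122 or more for RBX1. None of the 4 listed was called low where tested, beside 1.38% to 5.09% of all genes tested.

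Genes whose level was most like that of CDKN2A over the 5 clusters were TMPRSS11E (Pearson r 0.998 of log2(CPM + 1)), RAB25 (0.995), ZNF232 (0.991), KLK6 (0.9904) and MSTO1 (0.9902). For MTAP they were SMYD4 (0.999), PIMREG (0.998), TXLNG (0.998), DHRS7B (0.995) and CYP51A1 (0.991). None lies on chromosome 9. With 5 points that share libraries, 220 and 174 of 10175 genes compared passed 0.9 for CDKN2A and MTAP, and the likeness is a description only.

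Cluster 3 divided at the next clustering step into parts of 405 and 329 nuclei, and both had RNA and ATAC signal at the locus. CDKN2A was 105 CPM (97.9 to 113) in the first and 66.9 CPM (59.9 to 74.5) in the second, and MTAP was 142 and 60.7 CPM. Peaks over CDKN2A and CDKN2B held 210 and 79 fragments, or 81.1 and 45.7 FPM. No member gene and no window peak was called low in either part. In the undivided cluster 3, 6 of the 7 members and 9 of the 83 window peaks could be tested, beside 2.94% of all genes and 0.952% of all peaks called low. The absence of calls in these smaller parts therefore says little.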

How the data were processed

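RNA and open chromatin of nuclei from the 5 mixed lines were analysed from the count matrices deposited by the authors, which hold whole-number counts of RNA UMIs per gene and of ATAC signal per peak for each barcode. Per the submitters' processing notes these came from Cell Ranger ARC 2.0.0 on GRCh38; the annotation release was not given in the sources used here, and each portion has a peak set of its own, shared by all its nuclei. Because 90.1% of non-zero ATAC counts were even, each was halved and rounded up to fragments. The long-read library was not used here.

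Nuclei with at least 1000 ATAC counts, 500 UMIs and no Scrublet doublet call (scanpy 1.11.5, expected rate 0.06; 385 of 6557 barcodes called) were kept. Seurat 5.3.0 (R 4.3.3) clustered them on 2000 variable genes, 30 components and 20 neighbours at the lowest resolution, 0.02, that gave at least 5 clusters. Nuclei of the 20% portion took the cluster they correlated with most, which returned 99.68% of the 80% nuclei to their own. The profiles were made from those same 80% nuclei, so this share does not measure how well the 20% nuclei were placed. UMIs and fragments were summed per cluster and scaled to 1000000 per cluster (CPM, FPM). A feature was tested where the mean of the other clusters would give at least 30 counts, and called low as the report says; with 1 library per portion no replicate test was run. Gene positions are from GENCODE 44. Named were the 7 members, all window genes, the listed pathway genes and, for CDKN2A and MTAP, the 5 most alike genes at 20 CPM or more in any cluster. A listed gene is not reported here. The members and lists were chosen with earlier results of these data known. No column of per-sample values was left without a sample.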

Additional observations from a re-analysis of the deposited data

How the results depend on the processing

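The division of the clusters by the locus held under the alternatives, but how many features could be called moved with the rule and the depth. At a threshold of 1/16, 1 member gene was low in cluster 2, and 21, 3 and 1 window peaks were low in clusters 0, 1 and 2. With 100 expected counts, 14, 1 and 0 peaks were low in those clusters, since fewer could be tested. Against the highest other cluster, 70, 42, 17 and 1 peaks were low in clusters 0 to 3. With all barcodes, doublet calls included, 1 member was low in cluster 2 and 28 peaks in cluster 0; the cause was not tested. In the shallower 20% portion, 3 and 0 members were low in clusters 1 and 2, 9, 0 and 0 peaks in clusters 0 to 2, and 9, 3 and 1 bins.

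The percent of nuclei with a fragment from MTAP to DMRTA1 became 0.0966, 15.7, 30.5 and 56.7 in clusters 0, 2, 3 and 4 after thinning, and 6.45, 30.2 and 60.9 in clusters 2, 3 and 4 where at least 2 fragments were required. It was 2.21 and 0.0690 in clusters 0 and 1 with all barcodes, and 0, 21.5, 55.1 and 74.5 in clusters 1 to 4 of the 20% portion. The log2 ATAC share of the near flank was -0.17, 0.28 and 0.34 in clusters 0, 2 and 4 without peaks at gene starts, and -0.16 and 0.42 in clusters 1 and 2 of the 20% portion. That of the far flank was -1.08, 0.34, -2.39, -0.069 and 1.51 in clusters 0 to 4 without peaks at gene starts, and -0.39, -0.95 and 0.10 in clusters 0, 1 and 3 of the 20% portion; so its sign turned in clusters 1 and 2 without those peaks and in cluster 3 of the 20% portion, and the cause was not tested.

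Of 172 alternative values of these summaries, 125 stayed within their limits, 45 moved and 2, in clusters 1 and 3 of the far flank, reversed from a value whose interval left out 0, and of 105 values of single members 79 stayed, 26 moved and none reversed. Leaving out barcodes shared by the portions, a threshold of 1/4, ATAC clusters in place of RNA clusters, and the finer clusters, an alternative chosen after seeing the data, moved none of the counts of low features by more than 1.5 times. No paired analysis was possible because no result comes from a test between replicates, each portion having a single library of each kind. Depth limits what can be read for the low genes: in cluster 4, 3 UMIs are 0.738 CPM.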
